A study of Mus musculus with 16 samples.

Results

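Glial transcripts were examined in single proprioceptor wells of the newborn mouse. The wells described are 58 of 373 wells of postnatal day 1 (p1) that held at least 5000 unique molecular identifiers (UMIs, counts of captured RNA molecules), under 20% of UMIs from mitochondrial (mt-) genes, and at least 200 CPM (counts per 1000000 UMIs) of *Apoe* and *Fabp7* together. These wells are called glial-high, and the other 315 wells within the same limits, with under 200 CPM of the pair, are called glial-low. The p1 part of the series held 576 wells in 6 libraries, and the whole series 1536 wells in 16 libraries.

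The study isolated proprioceptive neurons, the sensory neurons of muscle position, from mouse dorsal root ganglia (DRG) and sequenced single cells with CEL-Seq2. The p1 libraries carry 1 label for strain, *Trpv1Cre; PvFlp; Ai65* and *PvCre; Ai14*, in which a red reporter marks cells with a history of both *Trpv1* and parvalbumin promoter activity, or of parvalbumin promoter activity alone. The comparison libraries of embryonic day 15.5 came from *PvtdTom* embryos, which carry a transgene with the reporter under the parvalbumin promoter. The line and segmental level of each p1 library are not given in the labels, so libraries are numbered as in their titles and wells of all lines stand together. The study's methods name 2 *Trpv1* alleles, *Trpv1Cre-Basbaum* and *Trpv1Cre-Hoon*, each combined with *PvFlp; Ai65*, so 3 genotypes are mixed at p1. By the study's methods p1 neurons were picked by hand under fluorescence after collagenase and trypsin, whereas the label of the protocol names sorting, which was the method at e15.5. Nothing in the labels says that the libraries came from separate animals, and p-values measure the spread between libraries.

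Every DRG neuron is wrapped by satellite glial cells, which buffer potassium, clear glutamate and carry lipid. Its axon is accompanied by Schwann cells, which share a neural crest origin and the factors Sox10, Foxd3 and Erbb3 with satellite glia. Schwann cells of large axons go on to build myelin, under the transcription factor Egr2, from proteins such as Pmp22 and Mal. *Apoe* encodes a lipid carrier and *Fabp7* a fatty acid binding protein of satellite glia and Schwann cell precursors.

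The 6 libraries held between 386517 and 8814472 UMIs over 96 wells each, and library 3 was the shallowest. The same 96 well barcodes were used in all 6 libraries, and no library repeated another. Glial-high wells numbered 13, 5, 5, 10, 7 and 18 in libraries 1 to 6, beside 69, 76, 14, 50, 60 and 46 glial-low wells. Counts of the wells of a class were summed per library, which gave glial-high sums from 53276 UMIs (library 3) to 1868792 (library 1). In library 3 a single UMI was worth 18.8 CPM in the glial-high sum and 4.45 CPM in the glial-low sum. Of the 224755 UMIs of that glial-low sum, well 53 alone held 62050.

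The values that chose the wells are given as a description. In the CPM of the sums, *Apoe* (ENSMUSG00000002985, GRCm38 chr7:19696109-19699188) stood at 382, 337, 282, 298, 192 and 350 in the glial-high wells of libraries 1 to 6. It stood between 4.45 and 8.12 in the glial-low wells. *Fabp7* (ENSMUSG00000019874, chr10:57784881-57788450) stood at 333, 354, 432, 204, 95.8 and 323 in glial-high wells and between 0 and 9.17 in glial-low wells. Within a single glial-high well the pair held 2 to 322 UMIs, with a median of 24.5, and 55 of the 58 wells held both genes. Only 6 wells held fewer than 5 UMIs of the pair. The wells just inside the limit stood at 222, 234 and 241 CPM of the pair, and those just outside at 196, 194 and 191. Of the 315 glial-low wells, 198 held no UMI of the pair.

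The label of these wells as proprioceptors was checked against 4 defining genes. A UMI of *Pvalb*, the calcium buffer parvalbumin, was found in 57 of the 58 glial-high wells. *Runx3*, a transcription factor of proprioceptor fate, was found in 52, *Etv1*, a transcription factor needed for muscle afferents, in 58 and *Ntrk3*, the neurotrophin 3 receptor, in 57. The glial-low wells held these genes in 313, 303, 312 and 312 of 315. Each well was also thinned to 5000 UMIs with its class kept. The shares were then 94.8% and 93.7% for *Pvalb* and 75.9% and 75.6% for *Runx3* in glial-high and glial-low wells. Summed *Pvalb* stood at 802, 921, 882, 1041, 720 and 1002 CPM in the glial-high wells of libraries 1 to 6 and between 632 and 1030 CPM in the glial-low wells. The classes overlapped for all 4 genes, and none passed the test. *Pvalb* had a log2 difference of 0.06 ± 0.11 (SE), *Runx3* of -0.10 ± 0.13, *Etv1* of -0.16 ± 0.10 and *Ntrk3* of -0.31 ± 0.12, with edgeR adjusted p from 0.256 (*Ntrk3*) to 0.937 (*Pvalb*). With no filter on low counts *Ntrk3* passed (-0.41 ± 0.10, edgeR adjusted p = 0.00417). In that fit 275 of 30631 genes were lower. The median of the genes of the main fit lay at -0.12 there, against -0.03 in the main fit. All 4 genes were found together in 52 of the 58 glial-high and 302 of the 315 glial-low wells.

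Across all genes, 278 were higher and 39 lower in glial-high wells of the same library (edgeR quasi-likelihood test with a library term, Benjamini-Hochberg adjusted p under 0.05, 6 libraries). These are 2.79% of the 11358 genes tested, 2.45% higher and 0.343% lower. Without the library term, 193 genes were higher and 0 lower (260 lower at an unadjusted p under 0.05), and the paired fit is the one used because both classes of a library come from the same preparation. Of the 278 genes, 129 were at least 4-fold higher. The CPM ranges of the 6 glial-high and 6 glial-low sums did not overlap for 135 of them, and 1.36% of all tested genes had all 6 glial-high sums above all 6 glial-low sums.

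**Figure D1:**
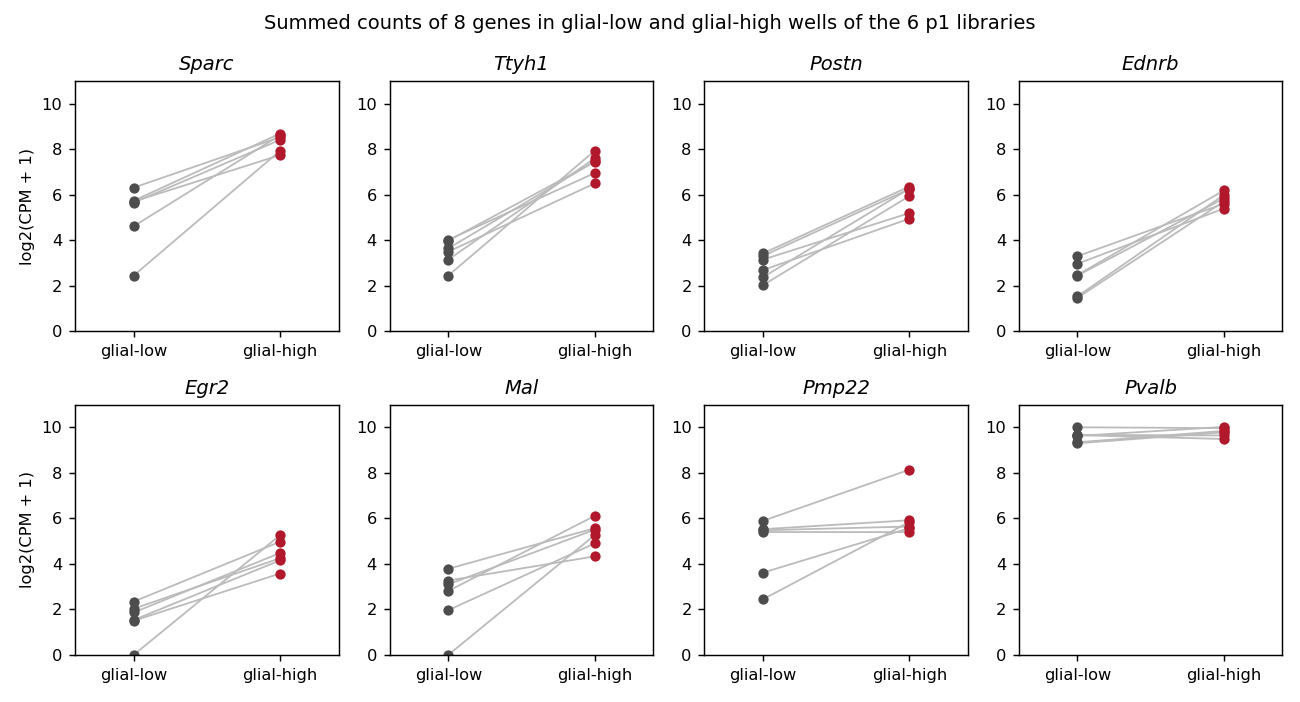
Summed level of 8 genes in glial-low (grey) and glial-high (red) wells, 1 point per class and library, as log2(CPM + 1), with a line joining the classes of a library (6 libraries). *Sparc*, *Ttyh1*, *Postn*, *Ednrb*, *Egr2* and *Mal* were higher in the glial-high wells of all 6 libraries with no overlap, *Pmp22* in 5 of 6 with overlap, and *Pvalb* in 3 of 6.

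Genes of satellite glia came along with the pair. Of the 14 genes listed, 13 passed the filter on low counts, 11 of these were higher, 0 lower and 2 did not pass the test. The summed CPM of the list was 1544 to 2590 in glial-high wells and 449 to 673 in glial-low wells, higher in all 6 libraries. The median log2 difference of the 13 genes was 2.33, against -0.03 over all genes tested. Genes enter the fit partly through the class in which they are high, so these counts describe the list only.

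*Ttyh1* (ENSMUSG00000030428, chr7:4119408-4136708), a chloride channel gene of glia, led the list. It stood at 193, 89.6, 244, 175, 123 and 173 CPM in the glial-high wells of libraries 1 to 6 and at 7.86, 10.3, 4.45, 11.5, 15.2 and 14.8 CPM in the glial-low wells. The lowest glial-high library thus lay well above the highest glial-low library, and the log2 difference was 3.69 ± 0.20 (edgeR, adjusted p = 2.83e-11). *Ednrb*, the endothelin receptor of neural crest glia, rose by 3.67 ± 0.32, from between 1.76 and 8.82 CPM to between 41.0 and 71.9 CPM. *Kcnj10*, the inward rectifier potassium channel that defines satellite glia, rose by 3.38 ± 0.37 (adjusted p = 1.23e-06), although its levels stayed between 8.21 and 56.3 CPM in glial-high wells. *Metrn*, a secreted factor of glia, rose by 3.08 ± 0.37.

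*Sparc*, a matrix protein secreted by satellite glia, stood at 340, 392, 244, 369, 213 and 413 CPM in glial-high wells and at 49.3, 23.5, 4.45, 78.5, 51.1 and 52.4 CPM in glial-low wells. The log2 difference was 2.78 ± 0.20 (edgeR, adjusted p = 2.27e-09). *Hey2*, a target of Notch signalling, rose by 2.33 ± 0.40, though the classes overlapped and library 3 went the other way. There it stood at 37.5 CPM in glial-high and 57.8 CPM in glial-low wells, where 1 UMI is 18.8 and 4.45 CPM.

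The other genes of the list that rose did so by smaller folds. *Dbi*, which encodes an acyl-CoA binding protein, rose by 1.98 ± 0.13 to between 172 and 312 CPM, and *Ptprz1*, a receptor phosphatase of glia, by 1.67 ± 0.13 to between 171 and 320 CPM. *Glul*, the glutamine synthetase that clears glutamate, rose by 1.47 ± 0.20, and *Atp1b2*, a pump subunit, by 0.87 ± 0.20. The glutamate transporter gene *Slc1a3* differed by 0.68 ± 0.34 (adjusted p = 0.471) and *Sparcl1* by -0.10 ± 0.12 (adjusted p = 0.863). *Gja1*, the gap junction gene of satellite glia, was below the filter, with 110 UMIs in glial-high and 27 in glial-low wells.

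**Figure D2:**
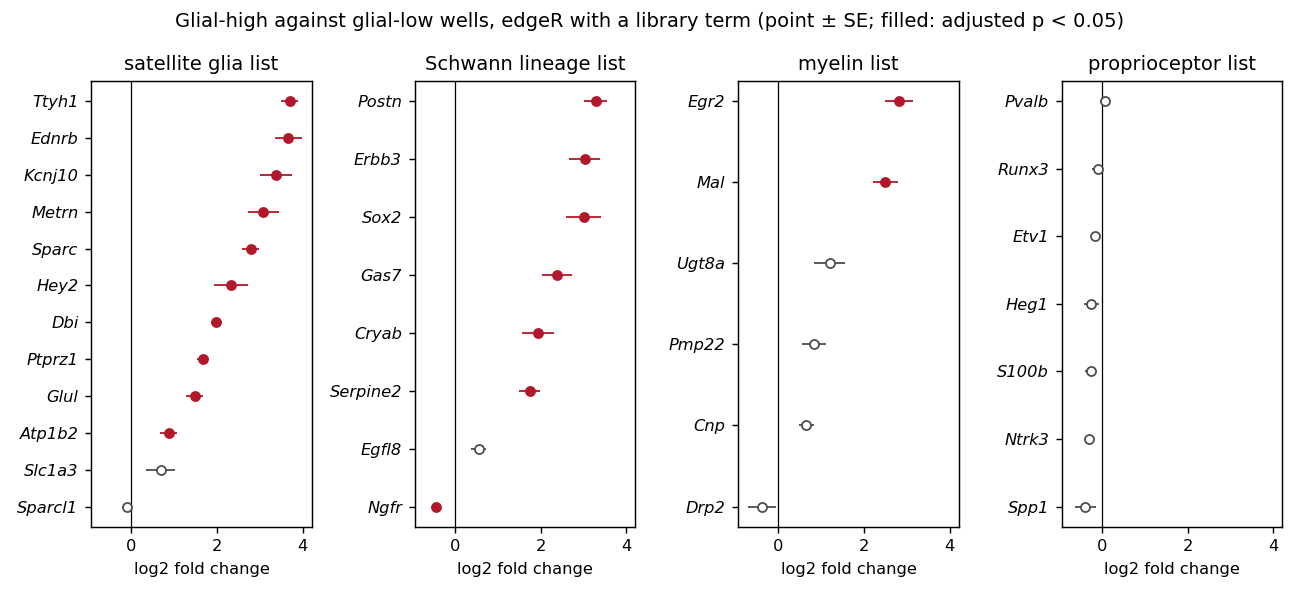
Log2 difference of glial-high against glial-low wells (point) with its SE (bar) for the genes of 4 lists that passed the filter on low counts. Filled red points passed an adjusted p of 0.05 (edgeR). Genes not reported here are not shown. Satellite glia and Schwann lineage genes reached above 3, and *Egr2* and *Mal* alone of the myelin genes shown passed. The 7 proprioceptor genes lay between -0.39 (*Spp1*) and 0.06 (*Pvalb*), with a median of -0.25 against -0.03 over all genes, and 0 passed.

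Genes of the Schwann lineage also rose. Of 16 genes listed, 9 passed the filter, 7 were higher, 1 was lower and 1 did not pass the test. The summed CPM of the list was 744 to 1013 in glial-high wells and 343 to 521 in glial-low wells. *Postn* (ENSMUSG00000027750, chr3:54361109-54391037), an adhesion protein of Schwann cells, stood at 60.5, 29.9, 75.1, 81.3, 35.6 and 75.9 CPM in glial-high wells. In glial-low wells it stood at 3.06, 5.43, 8.90, 9.70, 7.86 and 4.17 CPM, so the classes did not overlap, and the log2 difference was 3.28 ± 0.26 (edgeR, adjusted p = 7.65e-09).

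*Erbb3*, the neuregulin receptor on which Schwann cells depend, rose by 3.04 ± 0.36, from 1.46 to 5.29 CPM to between 10.9 and 29.9 CPM. *Sox2*, a factor of immature glia, rose by 3.0 ± 0.41. The classes overlapped for *Sox2*, since the glial-low wells of library 3 held 48.9 CPM. *Gas7*, a cytoskeletal gene, rose by 2.38 ± 0.35, *Cryab*, a small heat shock protein, by 1.94 ± 0.37 and *Serpine2*, a protease inhibitor, by 1.74 ± 0.24. *Egfl8* differed by 0.55 ± 0.18 (adjusted p = 0.140).

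*Ngfr*, the low-affinity neurotrophin receptor, was the exception. It stood at 248, 213, 263, 169, 159 and 250 CPM in glial-high wells and at 256, 346, 294, 207, 297 and 278 CPM in glial-low wells, lower in all 6 libraries with overlap between classes. The log2 difference was -0.45 ± 0.12 (edgeR, adjusted p = 0.0396), and sensory neurons also use this gene. The call was lost under 14 of 19 other settings.

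The neural crest transcription factor genes *Sox10* and *Foxd3* did not pass the filter of the main test, which looks at each sum. Their lowest glial-high sums stood at 4.27 CPM (*Sox10*, library 2) and 0 CPM (*Foxd3*, library 3). *Sox10* and *Foxd3*, with *Cdh19* (a cadherin of Schwann cell precursors), held 143, 118 and 51 UMIs in glial-high wells against 43, 28 and 10 in glial-low wells. In the fit with no filter on low counts 12 of the 15 detected genes of the list were higher, with log2 differences of 3.15 ± 0.36 for *Sox10*, 3.83 ± 0.39 for *Foxd3* and 4.44 ± 0.58 for *Cdh19*. In that fit 1.57% of 30631 genes were higher, and the median of the genes of the main fit lay at -0.12.

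Fewer myelin genes passed the test. Of 17 genes listed, 7 passed the filter and 2 were higher, 0 lower and 5 did not pass the test. At an unadjusted p under 0.05, 6 of the 7 were higher, and DESeq2 called 3. Over all 11358 genes, 1275 had an unadjusted p under 0.05, 579 of them lower, and DESeq2 called 281. *Egr2*, the regulator of myelination, stood at 30.5, 21.3, 37.5, 18.1, 10.9 and 16.9 CPM in glial-high wells and at 0 to 4.08 CPM in glial-low wells, with no overlap. Its log2 difference was 2.82 ± 0.32 (edgeR, adjusted p = 1.92e-06). *Egr1*, of the immediate early genes described below, rose by 2.57 ± 0.18 in the same wells. Whether the rise of *Egr2* goes with myelin or with these genes was not tested. *Mal*, a lipid raft protein of myelin, stood at 28.9, 68.3, 37.5, 46.4, 19.2 and 44.4 CPM against 0 to 12.8 CPM, a log2 difference of 2.49 ± 0.29.

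The structural protein gene *Pmp22* stood at 41.2, 282, 56.3, 49.0, 46.5 and 59.6 CPM in glial-high wells and at 41.3, 58.4, 4.45, 43.7, 11.3 and 45.1 CPM in glial-low wells. The log2 difference of 0.82 ± 0.28 did not pass (adjusted p = 0.171), and neither did those of *Cnp*, an enzyme of non-compact myelin (0.65 ± 0.18, adjusted p = 0.0584), or *Ugt8a*, which makes galactolipids (1.19 ± 0.36, adjusted p = 0.0941). *Mag*, *Prx* and *Cldn19*, genes of mature myelin, were below the filter. They held 11, 27 and 16 UMIs in all glial-high wells together and 70, 122 and 67 in the glial-low wells, whose sums are larger. Their medians over libraries were 0.913, 4.19 and 2.74 CPM in glial-high and 2.83, 5.71 and 2.85 CPM in glial-low wells. With no filter, 6 of the 16 detected genes were higher.

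The myelin list as a whole was uneven between wells. Its summed CPM was 264, 1468, 225, 272, 271 and 346 in the glial-high wells of libraries 1 to 6 and 193, 246, 93.4, 215, 76.8 and 294 in the glial-low wells, higher in all 6 libraries although the ranges overlapped. The median over single wells, in contrast, was 245 CPM in glial-high and 64.1 CPM in glial-low wells, with no overlap between libraries. A few glial-low wells held very much myelin RNA. The list reached at least 1000 CPM in 15 of 315 glial-low wells (4.76%), of 4 libraries, which held 54.0% of the myelin list UMIs of their class. Among the 58 glial-high wells 5 reached that level (8.62%), with 31.8% of the myelin UMIs. Of the 15 glial-low wells, 8 held no UMI of *Apoe* or *Fabp7*, their medians were 537 CPM of *Pmp22* and 15.3 CPM of *Ttyh1*, and the 4 proprioceptor genes summed to a median of 3175 CPM. Myelin RNA thus occurred both with and without the RNA of the selecting pair. When the 2 glial-high and 12 glial-low wells with under 1000 CPM of the 4 proprioceptor genes were left out, 4 in place of 2 myelin genes were higher.

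**Figure D3:**
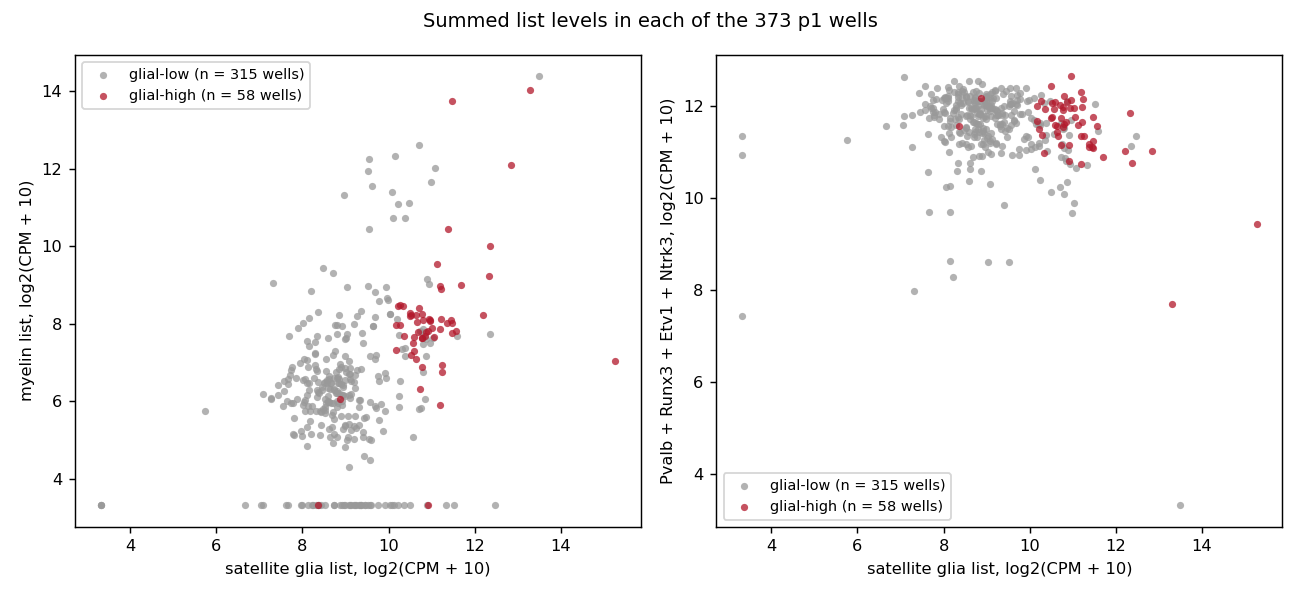
Each point is 1 of the 373 p1 wells within the limits, red for the 58 glial-high and grey for the 315 glial-low wells; axes are summed list levels as log2(CPM + 10). Glial-high wells lie to the right on the satellite glia axis, a few wells of both classes lie high on the myelin axis, and most glial-high wells share the level of the 4 proprioceptor genes with the glial-low wells.

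The glial-high wells were not uniform. The satellite glia list ranged from 320 to 39455 CPM with a median of 1884, the Schwann lineage list from 352 to 6255 with a median of 857, and the myelin list from 0 to 16779 with a median of 245. Across the 58 wells the satellite and Schwann lists had a Spearman correlation of 0.67 on CPM, the Schwann and myelin lists one of 0.50 and the satellite and myelin lists one of 0.31. The satellite list and the 4 proprioceptor genes had one of -0.43. These are descriptions over wells that share libraries and differ in depth, and CPM values of a well sum to a constant. *Apoe* and *Fabp7* themselves had one of 0.14. In the 45 wells of at least 20000 UMIs the correlation was 0.31 for the Schwann and myelin lists, 0.17 for the satellite and myelin lists and 0.32 for *Apoe* and *Fabp7*.

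A small number of wells stood apart. Well 64 of library 6 held 16779 CPM of the myelin list, 6354 CPM of *Sparc* and 3078 CPM of *Fos*, no UMI of *Ttyh1*, *Pvalb* or *Runx3*, and 1 UMI each of *Etv1* and *Ntrk3*. Well 93 of library 2 held 13642 CPM of the myelin list with 2173 CPM of *Pmp22* (47 UMIs), beside 24 UMIs of *Etv1* and 8 of *Pvalb*, and lay in the library with the highest myelin sum. Well 34 of library 6 held 39455 CPM of the satellite glia list, the highest of the 58 wells. Well 67 of library 1 held 8923 CPM of *Col1a2* and 3373 CPM of *Sparc*. With the wells under 1000 CPM of proprioceptor genes left out, which removes wells 64 and 34 of library 6, 313 genes were higher and 50 lower.

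Glial genes were also found in wells below the limit of 200 CPM. In wells with no UMI of the pair, *Sparc* was found in 28.8%, *Ttyh1* in 29.8% and *Ednrb* in 6.06% of 198 wells. In the 19 wells of 100 to 200 CPM these shares were 78.9%, 78.9% and 42.1%, and in the 30 wells of 500 CPM or more they were 96.7%, 93.3% and 80.0%. The median satellite list was 430 CPM in wells with no UMI of the pair, 1737 CPM at 100 to 200 CPM, 1736 CPM at 200 to 500 CPM and 1964 CPM at 500 CPM or more. Median depth was 43602, 18489, 45850 and 92410 UMIs in these bins, so the shares are not at matched depth. Thinned to 5000 UMIs per well with the classes kept, *Sparc* was found in 75.9% of glial-high and 13.0% of glial-low wells. *Ttyh1* was found in 51.7% and 7.94%, and *Pmp22* in 27.6% and 12.4%. Without thinning these were 96.6% and 38.1%, 91.4% and 39.7%, and 84.5% and 37.5%.

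**Figure D4:**
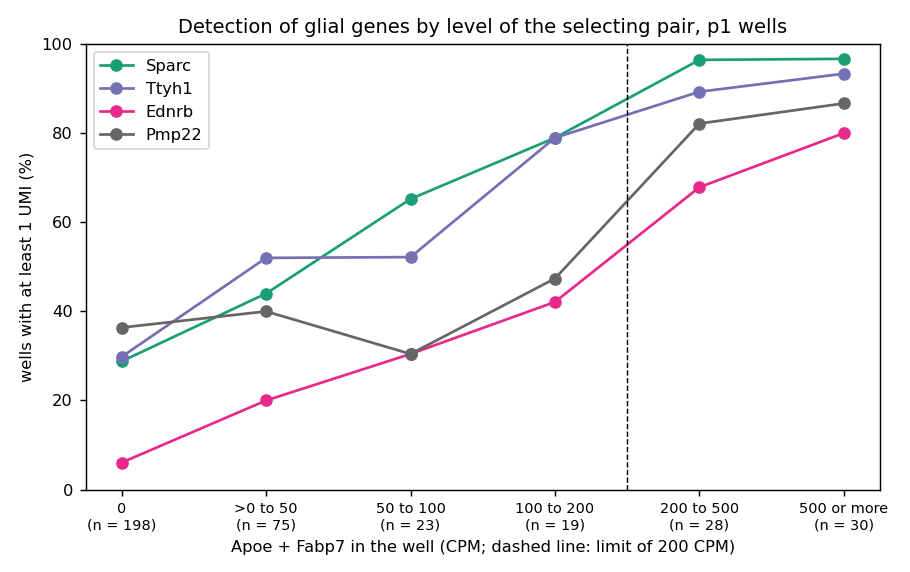
Percent of p1 wells with at least 1 UMI of 4 glial genes (lines) by the level of *Apoe* plus *Fabp7* in the well (CPM; number of wells per bin under the axis; not at matched depth). *Sparc* climbs from 28.8% in wells with no UMI of the pair to 96.7% in those of 500 CPM or more and is at 78.9% just below the limit (dashed), whereas *Pmp22* is at 47.4% there.

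The genes with the largest fold were not chosen by any list. Genes enter the fit partly through the class in which they are high, so the ranking is a description only. Among protein-coding genes higher in all 6 libraries, the 12 with the largest log2 difference included *Sfrp5* (5.07 ± 0.37), *Mlc1* (4.91 ± 0.47), *Dlk1* (4.85 ± 0.44), *Slc43a3* (4.62 ± 0.34), *Fbln5* (4.6 ± 0.29), *Fbln2* (4.48 ± 0.29), *Ccn1* (4.48 ± 0.23), *Epas1* (4.44 ± 0.35), *Olfml2a* (4.43 ± 0.25), *Vcam1* (4.43 ± 0.59) and *Fam129a* (4.39 ± 0.37). *Sfrp5*, a secreted Wnt inhibitor, stood at 60.5, 38.4, 113, 110, 19.2 and 65.2 CPM in glial-high wells and at 0 to 3.67 CPM in glial-low wells. *Ccn1*, a secreted matrix protein, stood at 347, 627, 150, 330, 161 and 235 CPM against 5.69 to 22.5 CPM. *Mlc1* encodes a membrane protein of astrocytes and other glia. *Fbln2* and *Fbln5* encode matrix glycoproteins, *Epas1* a hypoxia-inducible factor and *Vcam1* an adhesion molecule. The classes overlapped only for *Vcam1* among these genes, because of 13.3 CPM in the glial-low wells of library 3, where 1 UMI is 4.45 CPM. The glial-low wells of all libraries together held between 8 (*Vcam1*) and 329 (*Ccn1*) UMIs of these genes, so the folds rest on low glial-low levels.

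Immediate early and stress genes were higher together. All 7 genes listed were tested and higher, and the list summed to 1138 to 1839 CPM in glial-high and 249 to 383 CPM in glial-low wells. *Fos*, an activity-induced transcription factor, stood at 315, 593, 206, 310, 257 and 268 CPM in glial-high wells and at 61.6, 76.6, 22.2, 56.9, 66.8 and 66.0 CPM in glial-low wells. The log2 difference was 2.30 ± 0.14 (edgeR, adjusted p = 1.73e-10). *Jun*, its partner, rose by 1.32 ± 0.12, from between 129 and 177 CPM to between 323 and 638 CPM. *Hspa1b*, a heat shock protein, rose by 2.57 ± 0.23, and its near-identical copy *Hspa1a* by 2.42 ± 0.23, so that the split of reads between the pair is uncertain. The mt- share, given below, also differed between the classes, and its part in this result was not tested.

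Fewer genes of other lists passed. Of 14 genes of cholesterol synthesis and uptake, 4 were higher and 0 lower. Among them were the synthesis enzymes *Msmo1*, by 0.55 ± 0.13, and *Cyp51*, by 0.48 ± 0.12, with adjusted p of 0.0197 and 0.0308. These calls were lost under 5 and 10 other settings. Of the 13 sensory neuron genes, 7 proprioceptor genes and 4 of 5 muscle type signature genes that were tested, 0 passed (edgeR). At an unadjusted p under 0.05, 7 sensory neuron genes and 1 proprioceptor gene were lower and 1 muscle type gene was higher. DESeq2 with the same library term called 1, 0 and 0. Over all 11358 genes, 1275 had an unadjusted p under 0.05, 579 of them lower, and DESeq2 called 281. The summed sensory neuron list was higher in glial-high wells in 1 of 6 libraries. Its median over single wells was 27522 CPM in glial-high and 35060 CPM in glial-low wells. With no filter on low counts, 6 sensory neuron genes and 1 proprioceptor gene were lower. In that fit 275 of 30631 genes were lower, and the median of the genes of the main fit lay at -0.12. *Ntrk2*, a neurotrophin receptor of the mechanoreceptor list that glia also express, rose by 1.66 ± 0.42, in 5 of 6 libraries, and was not called by DESeq2.

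Markers of other cell types of the ganglion were looked at beside these results. *Col1a2*, a collagen gene, rose by 0.98 ± 0.22, in 5 of 6 libraries, and was not called by DESeq2, while *Col1a1* (-0.94 ± 0.48) and *Col3a1* (-0.62 ± 0.34) did not pass, and *Dcn* and *Lum*, markers of fibroblasts, held 11 and 1 UMIs in all glial-high wells. The 8 mesenchymal genes summed to 98.5 to 357 CPM in glial-high and 105 to 2327 CPM in glial-low wells. The upper end was library 3 with 2225 CPM of *Pdgfra* alone, although its median glial-low well held 0 CPM of the list. Well 53 held 62050 of the 224755 UMIs of that sum, with 387 CPM of the 4 proprioceptor genes. Which wells held the *Pdgfra* RNA was not examined. The median over single wells was 153 CPM in glial-high and 11.9 CPM in glial-low wells, higher in all 6 libraries. With no filter on low counts 1 of the 8 genes was higher and 4 lower, beside 481 higher and 275 lower of all 30631 genes. The part of mesenchymal RNA in the other results was not tested. The 9 macrophage genes summed to 0 to 5.16 CPM in glial-high and 0.582 to 31.1 CPM in glial-low wells. Glial-high wells were higher in 2 of 6 libraries, and 3 of the 9 genes were at 0 in them. The 9 endothelial and mural genes summed to 4.27 to 32.0 CPM in glial-high and 6.99 to 93.4 CPM in glial-low wells, higher in 1 of 6 libraries. In glial-high wells *Cldn5* and *Cdh5*, which define endothelium, were at 0, and the other genes of the list held UMIs. With no filter 2 of the 9 were higher and 1 lower, and among the higher was *Notch3*, a receptor of mural cells (24 against 11 UMIs, log2 difference 2.64 ± 0.72, edgeR adjusted p = 0.0139). The 6 cell cycle genes summed to 19.2 to 192 CPM in glial-high and 41.7 to 93.4 CPM in glial-low wells, and 0 of the 2 tested passed, also 0 at an unadjusted p and by DESeq2. With no filter 2 of the 6 were higher, *Top2a* by 1.23 ± 0.31 and *Cdk1* by 2.29 ± 0.70 (edgeR adjusted p = 0.00601 and 0.0417). Hemoglobin and *Alas2* transcripts summed to 0 to 255 CPM in glial-high and 0.582 to 882 CPM in glial-low wells. For 5 listed nociceptor genes the counts were below the filter and 0 of the other 2 passed, also 0 at an unadjusted p and by DESeq2.

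The 39 lower genes held 14 protein-coding genes, and the others were 7 unclassified (TEC) transcripts, 7 miscellaneous RNAs, 6 lincRNAs, 3 miRNA genes, 1 antisense and 1 sense intronic RNA. The 8 protein-coding genes with the largest fall in all 6 libraries had log2 differences from -1.57 to -0.45. *Gria2*, an AMPA receptor subunit, differed by -0.53 ± 0.13 and *Scn8a*, a sodium channel of large axons, by -0.45 ± 0.12. *Adgrb1*, an adhesion receptor of synapses, differed by -0.71 ± 0.18, *Srrm3*, a splicing factor of neurons, by -0.75 ± 0.17 and *Mctp1*, a calcium sensor of vesicles, by -0.86 ± 0.21. *Smyd5* (-1.02 ± 0.27), *Hoxd4* (-1.57 ± 0.40) and *Ngfr*, described above, complete the 8. Their edgeR adjusted p ranged from 0.00919 (*Srrm3*) to 0.0427 (*Smyd5*), and each of the 8 calls was lost without the library term and under at least 3 settings in all.

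Depth and RNA quality of the classes were set side by side within libraries. The mt- share was lower in glial-high wells in all 6 libraries, with medians of 7.42, 9.55, 8.93, 7.43, 10.9 and 7.86% against 9.16, 9.73, 14.6, 12.8, 11.4 and 9.77%. The mean difference was -2.56 percentage points ± 2.39 (SD, n = 6; exact sign-flip permutation test, two-sided p = 0.03125, the smallest that 6 libraries allow). Median UMIs per well were 116965, 21625, 10473, 44146, 44121 and 75624 in glial-high wells, higher than in glial-low wells in 4 of 6 libraries and lower in libraries 2 and 3. The mean difference of 6184 UMIs ± 29182 (SD, n = 6) lay within the spread between libraries (exact sign-flip permutation test, p = 0.6875). Detected genes per well differed by 304 ± 2289 (SD, n = 6; exact sign-flip permutation test, p = 0.78125). The part of the mt- share in the differences above was not tested.

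The wells with the fewest UMIs give a further reference. The 75 p1 wells with under 1000 UMIs summed to 31910 UMIs, of which 4 were *Apoe*, 6 *Fabp7*, 7 *Sparc* and 0 *Ttyh1*, beside 22 of *Pvalb*. In CPM these were 125 for *Apoe* and 188 for *Fabp7*, above the glial-low sums. Library 6 held 2 of the 4 and 4 of the 6 UMIs in 9 wells (438 and 875 CPM), and libraries 1, 2 and 5 held 0. A glial cell or fragment in the well and free RNA taken up with a neuron cannot be told apart in these data, and fewer glial cells and less RNA per cell give the same counts.

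The embryonic libraries were used to ask whether the accompanying genes differ with age. At e15.5, wells were also required to hold at least 200 CPM of the neuronal genes *Avil* and *Isl1* together, and 77 of 403 wells were glial-high. Glial-high wells made up 15.9, 6.17, 26.3, 16.7, 10.4 and 28.1% of wells in the p1 libraries, a mean of 17.3% ± 8.62 (SD, n = 6). At e15.5 the share ranged from 11.7 to 43.5%, with a median of 19.2% and a mean of 21.7% ± 10.7 (SD, n = 10). The ranges overlapped and the difference was within the spread between libraries (exact permutation test over libraries, two-sided p = 0.409).

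The share of myelin among glial UMIs depended on 1 library. Of the UMIs of the 3 glial lists in glial-high wells, the myelin list held 8.84, 38.4, 8.16, 9.03, 9.77 and 8.77% in p1 libraries 1 to 6 and between 8.57 and 13.8% in the 10 e15.5 libraries. The means were 13.8% ± 12 (SD, n = 6) and 11.3% ± 1.70 (SD, n = 10), which did not differ beyond the spread (exact permutation test, two-sided p = 0.762). Without p1 library 2, which holds well 93, the p1 mean was 8.92% and lay 2.41 percentage points below e15.5 (n = 5 against 10; exact permutation test, p = 0.0103). With the median over wells of each library in place of the sum, an alternative chosen after seeing the data, the difference was -2.24 points (n = 6 against 10; exact permutation test, p = 0.0342). At a limit of 500 CPM of the pair it was -3.34 points (n = 4 against 10, exact permutation test, p = 0.00699). There p1 library 2 also dropped out, with fewer than 3 glial-high wells, so this setting is not separate from leaving out that library. With wells thinned to 5000 UMIs it went the other way, 10.7 points (n = 6 against 10, exact permutation test, p = 0.0465). There wells were classed again on the thinned counts, so that 1 UMI of the pair reaches the limit. The direction thus depended on the setting and on p1 library 2.

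**Figure D5:**
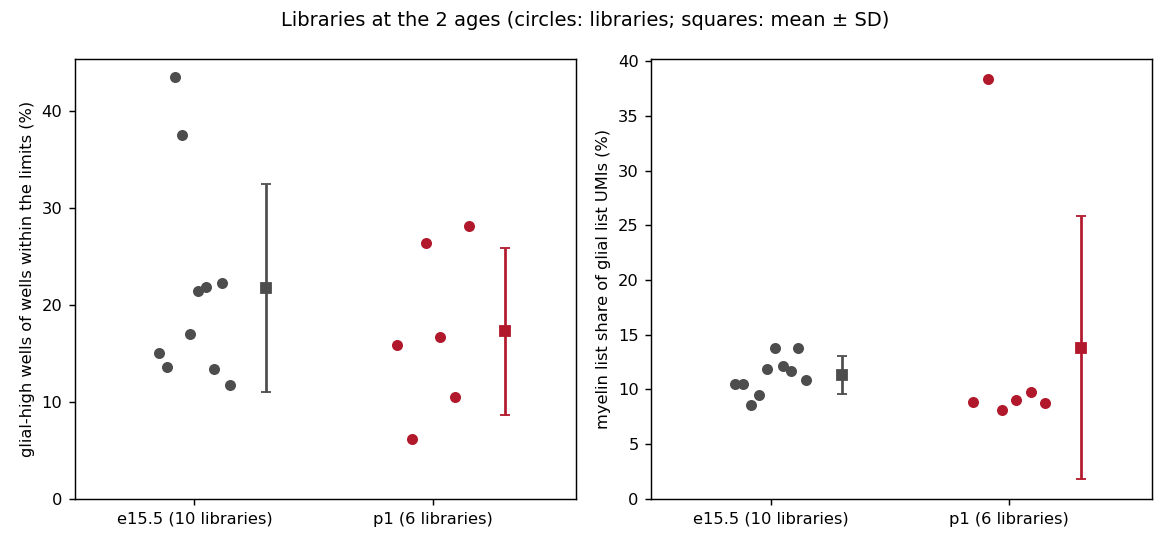
Left, percent of wells within the limits that were glial-high; right, percent of the UMIs of the 3 glial lists that belonged to the myelin list in glial-high wells. Circles are libraries (10 at e15.5, 6 at p1) and squares with bars are means ± SD; library 2 of p1, at 38.4%, stands apart from the other p1 libraries, which lie between 8.16 and 9.77%.

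The contrast between glial-high and glial-low wells itself was smaller at p1 than at e15.5 for several glial genes. An age by class term (edgeR, 6 p1 and 8 e15.5 libraries with at least 5 wells of each class) passed for 64 of 13162 genes (0.486%), of which 58 had the smaller contrast at p1 (0.441%) and 6 the larger. Of the genes tested, 6 of 14 satellite glia, 3 of 15 Schwann lineage and 2 of 10 myelin genes had the smaller contrast at p1. In these lists 0 had the larger (1 satellite glia gene at an unadjusted p under 0.05). Over all 13162 genes, 1166 had an unadjusted p under 0.05 in either direction. The median of the term was -1.45, -1.74 and -1.94 (log2) for the 3 lists, against 0.04 over all genes. The selecting pair itself, given as a description, had terms of -1.44 (*Apoe*) and -1.85 (*Fabp7*). Its glial-high medians were 602 and 560 CPM at e15.5 against 318 and 328 CPM at p1, so glial-high wells of e15.5 held more of the selecting transcripts, and the part of this in the terms of other genes was not tested.

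For *Mal* the term was -4.16 ± 0.53 (edgeR, adjusted p = 0.000330). Glial-high wells held 19.2 to 68.3 CPM at p1 and 19.5 to 146 CPM at e15.5. Glial-low wells held 0 to 12.8 CPM (median 6.80) at p1 and 0 to 1.53 CPM (median 0.209) at e15.5. *Cryab* (-3.51 ± 0.59, adjusted p = 0.00468) stood at a median of 6.14 CPM in glial-low wells at p1 and 0.800 CPM at e15.5. *Hey2* (-2.73 ± 0.50, adjusted p = 0.00894) stood at 5.88 and 1.75 CPM. The median of all 3 genes in glial-low wells was thus higher at p1. For *Hey2* the glial-high wells also held less at p1, 12.8 to 47.2 CPM against 36.0 to 224 CPM.

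*Jun* went the other way, with an age by class term of 1.02 ± 0.18 (edgeR, adjusted p = 0.00658). Its glial-high wells held 323 to 638 CPM at p1 and 329 to 906 CPM at e15.5, and its glial-low wells 129 to 177 CPM at p1 and 311 to 539 CPM at e15.5. Of the 7 immediate early and stress genes, 2 had a larger contrast at p1 and 0 a smaller. Age cannot be told apart from mouse line, dissociation time and the way cells were isolated.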

How the data were processed

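Single-cell libraries of mouse DRG proprioceptors (6 at p1, 10 at e15.5, 96 wells each) were analysed. The authors prepared the libraries with CEL-Seq2 and used scruff for counting; the deposited values are these raw UMI counts per gene and well, and the builds named in the submitters' processing notes are mm10 and GRCm38. Of 49671 Ensembl IDs, 49412 received a symbol from GENCODE M21 (GRCm38), and IDs without a symbol held 0.0352% of p1 counts. No column was left unassigned.

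Wells were classed as stated in the report. CPM is relative to all UMIs of a well or a sum. UMI counts were summed per library and class (at least 5 wells each) and compared by the quasi-likelihood test of edgeR 4.0.16 (a library term, TMM scaling, the filterByExpr filter on low counts, Benjamini-Hochberg adjustment over all tested genes other than *Apoe* and *Fabp7*, which chose the wells, threshold 0.05). DESeq2 (version 1.42.0) was an alternative. SE is the absolute log2 difference divided by the square root of F. Tested on simulated data, the p1 fit recovered 82% of genes changed 2-fold and 100% of those changed 4-fold (11360 genes). The age by class fit recovered 54% and 94% (13164 genes). Of the calls on simulated data, 3.7% were false in the p1 fit and 7.5% in the age by class fit. Same-library sums deviated together (correlation of log CPM deviations 0.191 to 0.465, median 0.263, over 6 libraries), as both classes share a preparation. Between different libraries the median was -0.0696, and the range of -0.350 to 0.394 overlapped.

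Doublets were not removed, since transcripts of a second cell type are the subject. Values over libraries were compared by exact permutation. Intervals of counting were not computed for single wells, and 1 UMI is 18.8 CPM in the shallowest sum.

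The members, gene lists and tests were chosen with earlier results of these data known. Genes named are the list members that passed (at most 4 per list beyond the 3 glial lists), those of 12 risen and 8 fallen protein-coding genes of largest fold that moved the same way in every library, 4 proprioceptor genes, and the glial genes of smallest adjusted p in the age by class term. Genes named for not passing, genes below the filter, *Hspa1a* and *Jun* in the age by class term were chosen after their values were seen. Some genes that this rule gives are not reported here by name and stay in sums and counts.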

Additional observations from a re-analysis of the deposited data

Results flagged for a closer look

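Values were marked where 1 library lay far from the others of its group (Dixon's criterion at 95%, 12 of 64 groups examined; chance marks about 1 in 20). In glial-high wells library 6 stood apart in the satellite glia list (2590 CPM) and library 2 in the myelin list (1468 CPM), the myelin share of glial UMIs (38.4%) and *Fos* (593 CPM). Library 5 was lowest in *Dbi* (172 CPM) and *Fbln5* (30.1 CPM). Library 3, whose sum held 53276 UMIs, stood apart in *Sox2* (113 CPM), *Cryab* (93.9 CPM), *Mlc1* (75.1 CPM), *Vcam1* (37.5 CPM), *Hoxd4* (18.8 CPM) and *Jun* (638 CPM); 1 UMI there is 18.8 CPM.

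The contrast between glial-high and glial-low wells differed between p1 and e15.5, by the age by class term of the edgeR fit, for *Mal* (-4.16), *Cryab* (-3.51), *Hey2* (-2.73) and *Jun* (1.02).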

How the results depend on the processing

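The count of 317 genes called became 193 with no replicate block (0 lower), 756 with no filter on low counts and 547 with at least 10 wells per sum. With wells thinned to 5000 UMIs it became 34, of 1868 genes tested. Thinned wells were classed again, so that 1 UMI of the pair reaches the limit. Leaving out 1 library gave 221 to 409. Genes shared with the 317 numbered 193, 305, 291 and 25. Higher list members became 4 (satellite glia), 1 (Schwann lineage) and 1 (myelin) with thinned wells, 12 (Schwann lineage) and 6 (myelin) with no filter, 11 (Schwann lineage) with at least 10 wells, and 4 (myelin) without wells under 1000 CPM of proprioceptor genes (added after seeing the data). The difference in myelin share turned from 2.50 to -3.34 points at a limit of 500 CPM, where p1 library 2 also dropped out. It was -2.41 without p1 library 2, -2.24 by well medians and 10.7 with thinned wells. Leaving out 1 library gave -2.41 to 3.64. The mt- share difference was -1.67 (limit 100 CPM), -3.38 (500 CPM; 3 libraries) and -2.57 (at least 10000 UMIs; 4 libraries), and -3.04 to -1.93 with 1 library left out; 5 or fewer libraries cannot reach the threshold. The age by class count of 64 became 41 with no replicate block, 387 with no filter, 111 with at least 3 wells, and 37 without p1 library 4 (37 to 66 over libraries); *Jun* lost its call with no replicate block. For the 49 named genes, 792 of 897 values under alternatives kept direction and side of the threshold, 104 lost the call, 1 gained one (*Ntrk3*) and 0 reversed. Except where a setting itself tests fewer genes or libraries, the cause was not tested. Depth limits the glial-high sums of libraries 2 and 3.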
